A study of Mus musculus with 5 samples.

Results

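The genes described here are 43 mouse genes of DNA replication, taken from a list of gene symbols fixed by function (licensing of origins, the replication fork and the supply of nucleotides) and found in all 5 tumours among 32286 measured features. They were measured by single-cell RNA-seq in synovial sarcoma (SyS) tumours of *hSS2* mice, in which TATCre protein, injected into the limb shortly after birth, switches on the human *SS18::SSX2* fusion in whichever cells the protein reaches. All 5 tumours carried the fusion, with no tumour-free tissue analysed here, and were harvested once morbidity was reached. By histology, 2 tumours were labelled biphasic (BP, glandular epithelium beside spindle cells) and 1 was monophasic (MP, spindle cells alone). A tumour with both patterns was labelled MP+BP, and the PD+MP tumour combined monophasic with poorly differentiated areas. The labels do not say whether both BP tumours came from the same animal, so p-values measure the spread between these tumours.

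DNA is copied in S phase from origins that were licensed beforehand. The origin recognition complex (Orc1, Orc6), Cdc6 and Cdt1 load the ring of Mcm2 to Mcm7 onto DNA, and geminin (Gmnn) blocks Cdt1 once S phase has begun. Mcm10, Cdc45 and the GINS complex (Gins1 to Gins4) turn the loaded ring into an active helicase, replication factor C (Rfc1 to Rfc5) places the sliding clamp Pcna, and replication protein A (Rpa1, Rpa2) covers single strands. DNA polymerase alpha with primase (Pola1, Pola2, Prim1, Prim2) starts each strand, Pold1 and Pole extend it, and Fen1 and Lig1 join Okazaki fragments. Ribonucleotide reductase (Rrm1, Rrm2), Tyms and Tk1 supply nucleotides. Behind the fork, Uhrf1 and Dnmt1 copy DNA methylation, Chaf1a and Chaf1b deposit histones, Slbp handles histone messages, and Clspn signals fork stress. Many of these genes are known targets of E2F transcription factors, which are held back by Rb proteins outside S phase.

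Promoters are shown first because the members were later seen to move together with the cell cycle. Of the 43 genes, 35 had windows of 250 bases before to 50 bases after a start site in the RefSeq promoter set (build GRCm38.p6), 42 windows in all. E2F-type letters (TTTCCCGC, TTTCGCGC, TTTGCCGC or TTTGGCGC on either strand, overlaps allowed) stood in 15 of these windows (35.7%), against 2.26% of all 32851 windows of that length and 2.37% of the windows within the members' range of G and C content. CCAAT on either strand stood in 64.3% of member windows against 37.4% of all, and TTTGAA, the core of the cell cycle homology element, in 11.9% against 17.9%. These are counts of letters and not of bound sites. The windows below include that of Clspn, the member with the largest rise into cells with more S-phase UMIs (S-high, defined below). Also shown is Cdt1, which lay furthest below macrophage-like cells. Mcm3, Mcm5, Mcm6 and Mcm7 are subunits of the helicase ring with more than 1 match. Rrm2 had the largest rise into cells with many UMIs of mitotic genes (G2M-high) and holds no such letters. Capitals mark the E2F-type letters, and where matches overlap (Mcm5, Mcm6) the capitals run on. Sequences run 5′ to 3′ on the gene's strand and lie at chr4:126556730-126557029, plus strand (Clspn), chr8:122567765-122568064, plus strand (Cdt1), chr1:20820263-20820562, minus strand (Mcm3), chr8:75109259-75109558, plus strand (Mcm5), chr1:128359656-128359955, minus strand (Mcm6), chr5:138171834-138172133, minus strand (Mcm7) and chr12:24708004-24708303, plus strand (Rrm2).
Clspn: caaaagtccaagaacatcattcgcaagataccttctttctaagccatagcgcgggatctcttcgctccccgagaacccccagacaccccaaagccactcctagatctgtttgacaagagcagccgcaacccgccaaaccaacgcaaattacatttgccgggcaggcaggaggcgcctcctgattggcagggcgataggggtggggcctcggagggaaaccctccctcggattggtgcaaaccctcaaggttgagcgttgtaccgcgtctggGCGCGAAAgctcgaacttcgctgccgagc
Cdt1: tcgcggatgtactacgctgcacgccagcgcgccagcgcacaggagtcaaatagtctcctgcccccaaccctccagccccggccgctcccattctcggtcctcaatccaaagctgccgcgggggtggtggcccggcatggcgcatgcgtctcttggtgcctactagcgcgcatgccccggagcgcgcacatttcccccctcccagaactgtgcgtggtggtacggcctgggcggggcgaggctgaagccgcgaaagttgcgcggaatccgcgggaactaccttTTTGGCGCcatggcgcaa
Mcm3: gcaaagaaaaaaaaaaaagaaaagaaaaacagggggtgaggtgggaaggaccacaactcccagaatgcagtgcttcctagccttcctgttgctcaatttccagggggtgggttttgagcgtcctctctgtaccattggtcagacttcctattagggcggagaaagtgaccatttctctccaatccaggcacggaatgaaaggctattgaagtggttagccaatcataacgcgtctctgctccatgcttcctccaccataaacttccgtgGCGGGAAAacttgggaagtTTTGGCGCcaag
Mcm5: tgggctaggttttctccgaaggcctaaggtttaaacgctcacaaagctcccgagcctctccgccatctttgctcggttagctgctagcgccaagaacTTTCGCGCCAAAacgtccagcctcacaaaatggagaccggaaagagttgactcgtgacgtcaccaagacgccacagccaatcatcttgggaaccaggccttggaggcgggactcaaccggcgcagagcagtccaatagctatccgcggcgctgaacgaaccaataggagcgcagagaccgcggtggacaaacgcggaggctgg
Mcm6: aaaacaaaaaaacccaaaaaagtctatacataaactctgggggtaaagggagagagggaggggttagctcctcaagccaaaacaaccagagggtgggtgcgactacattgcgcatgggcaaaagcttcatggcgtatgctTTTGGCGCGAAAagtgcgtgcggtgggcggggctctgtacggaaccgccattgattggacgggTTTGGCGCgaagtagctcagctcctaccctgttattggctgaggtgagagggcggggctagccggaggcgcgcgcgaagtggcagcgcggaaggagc
Mcm7: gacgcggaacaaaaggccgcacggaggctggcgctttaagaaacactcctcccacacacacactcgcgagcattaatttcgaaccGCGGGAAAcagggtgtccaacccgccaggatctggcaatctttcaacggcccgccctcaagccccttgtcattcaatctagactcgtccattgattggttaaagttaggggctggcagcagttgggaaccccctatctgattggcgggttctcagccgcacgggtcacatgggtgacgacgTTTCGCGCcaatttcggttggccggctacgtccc
Rrm2: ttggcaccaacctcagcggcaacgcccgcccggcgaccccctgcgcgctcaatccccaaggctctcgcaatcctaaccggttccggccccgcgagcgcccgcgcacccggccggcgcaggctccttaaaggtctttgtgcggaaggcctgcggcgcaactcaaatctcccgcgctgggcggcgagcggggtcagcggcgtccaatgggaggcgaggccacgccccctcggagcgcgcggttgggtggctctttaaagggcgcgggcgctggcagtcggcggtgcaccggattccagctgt

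The matches of Clspn (starting 21 bases after the start site), Cdt1 (32 after) and Mcm3 (19 and 38 after) lay after the start site, and those of Mcm5 (153 and 149 before) and Mcm6 (110, 106 and 47 before) upstream of the start. Mcm7 had 1 match on each side (165 before and 16 after). In the GENCODE M21 annotation of GRCm38 the 43 genes lie on 16 chromosomes. For 12 of them another annotated gene overlaps on the same strand, among them Gm20388 over Cdt1, so that their counts may be split or shared, and Pcna and Tyms have annotated pseudogenes, which may share reads with them.

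The filtered matrices held 51670 cells with between 89996321 and 118649103 unique molecular identifiers (UMIs, 1 per captured RNA molecule) per tumour. After quality filters, 39559 cells were kept. Of these, 25912 were SyS-like, 3643 macrophage-like, 2423 endothelial-like and 1246 mural-like, the last being contractile cells around vessels. The PD+MP tumour gave only 80 endothelial-like and 38 mural-like cells. Each class held its own markers, with a summed SyS marker level of 3165 to 5114 CPM (UMIs scaled to a common library total) in SyS-like cells, against 118 to 192 in macrophage-like, 98.8 to 237 in endothelial-like and 153 to 370 in mural-like cells. Endothelial-like cells also carried mural markers at 1252 to 1835 CPM. A further 4829 cells (12.2%) held SyS markers together with fibroblast or mural genes and were left unnamed. They made up 15.2% to 22.4% of the kept cells in the 3 tumours with BP in the label, and 1.66% and 2.90% in MP and PD+MP. Barcodes found in more than 1 tumour numbered 231 of 51437.

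Among SyS-like, macrophage-like, endothelial-like and mural-like cells, the mean summed level of replication genes was highest in SyS-like cells. In SyS-like cells the 43 genes together took 1363 and 1725 CPM in BP replicates 1 and 2, with 1590 CPM for MP, 1538 for MP+BP and 2760 for PD+MP. In macrophage-like cells of the same tumours the sums were 1220, 783, 1661, 839 and 1054 CPM. In endothelial-like cells they were 949, 748, 1222, 924 and 1116 CPM, and in mural-like cells 739, 696, 987, 964 and 1227 CPM. SyS-like cells stood above these classes in every tumour except MP, where macrophage-like cells were slightly higher. In neutrophil-like cells, only 3 to 113 per tumour, the sum was 19.5% to 108% of the SyS-like one. The means were 1795 ± 555 CPM in SyS-like (SD, n = 5 tumours), 1111 ± 353 in macrophage-like, 992 ± 183 in endothelial-like and 923 ± 214 in mural-like cells. Within a tumour, the sum in macrophage-like cells was 38.2% to 104% of that in SyS-like cells, while the SyS markers in macrophage-like cells stood at 3.12% to 5.17% of their SyS-like level. Because a class sum mixes cells in and out of S phase, a higher level can mean more cycling cells or more RNA per cycling cell, and the sections below separate these as far as the counts allow.

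**Figure D1:**
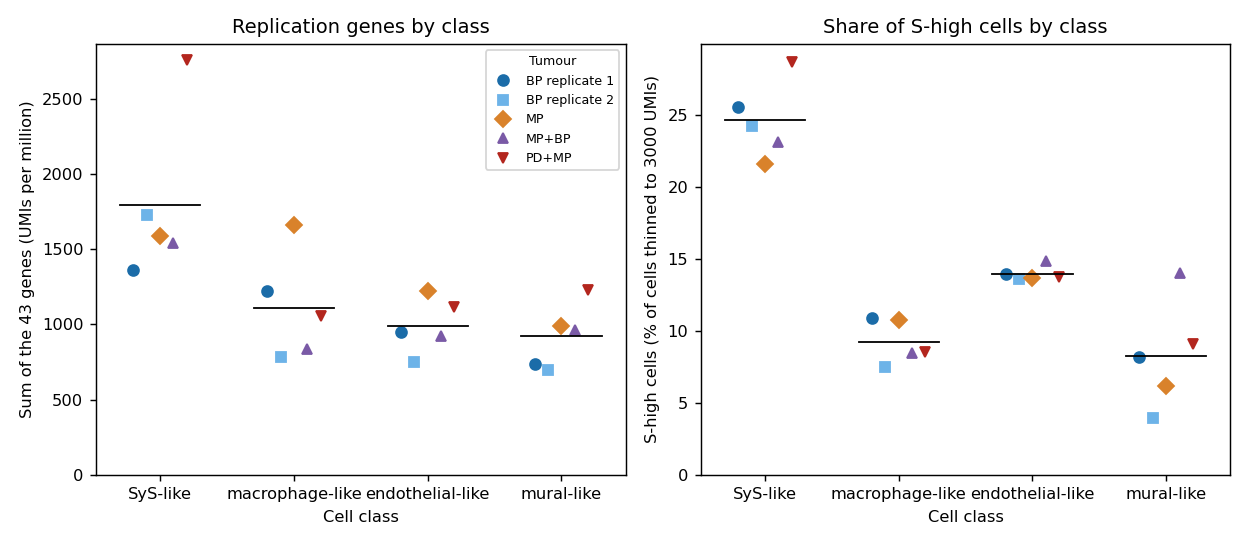
Left, summed level of the 43 replication genes in CPM for each cell class. Right, percentage of cells that were S-high after thinning to 3000 UMIs. Each point is 1 tumour and the line is the mean of 5 tumours. SyS-like cells of PD+MP stand highest at 2760 CPM, and the SyS-like points in the right panel, 21.6% to 28.7%, all lie above those of the other 3 classes drawn.

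To ask whether this held gene by gene, the counts of each class within each tumour were added up, and edgeR's quasi-likelihood test was run with the tumour as a block and Benjamini-Hochberg adjustment over all 14747 genes tested. All 43 genes could be tested. The 3 comparisons below share the same SyS-like sums and are not independent. Fold changes use TMM scaling, which compares each gene with the bulk of genes, whereas CPM values use library totals. Moving to library totals raised the median over all genes of the log2 fold change by 0.59 against macrophage-like, 0.30 against endothelial-like and 0.26 against mural-like cells, so a gene with equal CPM in 2 classes has a fold change below 0 here.

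Against mural-like cells, replication genes were widely higher in SyS-like cells. Of 43, 27 were called higher (62.8%) and 0 lower, against 27.2% and 20.7% of all genes, and their median log2 fold change was 0.90 against 0.15 for all genes. The largest changes were those of Rrm2, the small subunit of ribonucleotide reductase (1.84 ± 0.44 SE, adjusted p = 0.00203), Pola1 (1.78 ± 0.31, adjusted p = 0.000152) and Mcm3 (1.71 ± 0.35, adjusted p = 0.000676). Mcm3 measured 41.3, 55.8, 37.9, 40.4 and 106 CPM in SyS-like cells (BP replicate 1, BP replicate 2, MP, MP+BP and PD+MP, the order kept below) and 9.63, 5.68, 15.7, 15.8 and 35.3 CPM in mural-like cells. Every SyS-like value lay above every mural-like one, although the mural-like PD+MP value rests on 38 cells. Of the licensing genes 10 of 12 were higher at a median of 1.11, and of the genes of chromatin behind the fork and checkpoint 5 of 6 at a median of 1.13. Also called higher, from 0.50 to 1.65, were Orc1, Orc6, Cdc6, Gmnn, Mcm2, Mcm4, Mcm5, Mcm6, Mcm7, Cdc45, Gins2, Rfc1, Rfc2, Rfc3, Rpa2, Prim1, Pole, Fen1, Lig1, Uhrf1, Dnmt1, Chaf1a, Chaf1b and Clspn. Rpa1, Prim2, Pold1, Mcm10, Tyms and Tk1 were among the 16 not called. The helicase genes Gins3 and Gins4 were both at 0.02, and the lowest value was that of the clamp gene Pcna (-0.23 ± 0.18, adjusted p = 0.293).

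Against endothelial-like cells, 24 genes were called higher (55.8%) and 2 lower, against 31.4% and 28.6% of all genes, with a median log2 fold change of 0.67 against 0.07. Pola1, the catalytic subunit of polymerase alpha, measured 121, 169, 73.2, 79.2 and 239 CPM in SyS-like cells and 32.3, 26.8, 46.5, 31.8 and 29.3 CPM in endothelial-like cells. The groups did not overlap, and the log2 fold change was 1.67 ± 0.29 (adjusted p = 7.15e-05). Next came the histone chaperone gene Chaf1a (1.34 ± 0.30, adjusted p = 0.00102) and, at 1.22, Mcm4 (± 0.25, adjusted p = 0.00034) and Rrm2 (± 0.36, adjusted p = 0.00741). Both replication protein A genes and 4 of 6 clamp and loader genes were higher, among them Rfc1 (1.03 ± 0.13, adjusted p = 1.47e-06), the large subunit of the clamp loader. The 2 genes called lower were Pcna (-0.54 ± 0.17, adjusted p = 0.0115) and Pola2 (-0.78 ± 0.26, adjusted p = 0.0154), the regulatory subunit of polymerase alpha. Pola2 stood at 13.7, 19.9, 14.9, 16.0 and 39.1 CPM in SyS-like cells and 32.7, 33.8, 26.3, 18.4 and 24.2 CPM in endothelial-like cells, so the PD+MP tumour went the other way. With library totals in place of TMM scaling, neither was called lower. Pola1 and Pola2 are parts of the same enzyme, yet the first had the highest and the second the lowest fold change in this comparison. Called higher with values from 0.52 to 1.21 were also Mcm2, Mcm6, Mcm7, Mcm10, Gmnn and Cdt1, the helicase genes Cdc45 and Gins2, Rfc2, Rfc3, Rfc5, Prim1, Prim2, Pole, Lig1, Uhrf1 and Clspn, besides Rpa1 and Rpa2. The other 17 members were not called, and lowest of these was Gins3 (-0.23 ± 0.29, adjusted p = 0.508).

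Against macrophage-like cells the members did not stand out in number. Here 12 genes were called higher (27.9%) and 6 lower (14.0%), shares that are below the 38.8% higher and 30.8% lower of all genes. With library totals the split was 33 higher and 2 lower, against 59.4% and 18.9% of all genes. Among the genes called higher, Rrm2 (1.07 ± 0.36, adjusted p = 0.0136), the methylation maintenance gene Uhrf1 (1.05 ± 0.30, adjusted p = 0.00481) and Cdc45 (0.95 ± 0.23, adjusted p = 0.00128) had the largest fold changes. Pole measured 18.2, 16.8, 18.3, 16.8 and 16.8 CPM in SyS-like cells and 6.91, 5.28, 10.3, 5.17 and 3.74 CPM in macrophage-like cells. The values of this gene, whose product extends the leading strand, were nearly level over the SyS-like sums and did not overlap between the classes (0.94 ± 0.18, adjusted p = 0.000207). The other genes called higher were Orc1, Orc6, Mcm4, Mcm7, Rfc1, Rfc3, Pola1 and Tyms, with log2 fold changes from 0.51 to 0.88. Of the GINS genes, Gins1 (-0.81 ± 0.26, adjusted p = 0.0108) and Gins4 (-0.57 ± 0.15, adjusted p = 0.00209) were called lower, but Gins4 had near equal CPM (21.7 ± 3.40 and 21.4 ± 2.82, SD, n = 5) and its fold change was 0.0095 with library totals. The 25 members not called lay between -0.22 (Mcm3 and Mcm5) and 0.65 (Chaf1a), among them Rrm1, Dnmt1, Slbp, Rfc4 and Rpa1. Leaving out PD+MP or BP replicate 2 lowered the count of higher genes to 6 and 7, and leaving out BP replicate 1 or MP lowered the count of lower genes to 3. Fen1 (-0.82 ± 0.27, adjusted p = 0.0118) and Tk1 (-0.74 ± 0.25, adjusted p = 0.0135) were also called lower, and with library totals none of these 4 genes was.

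**Figure D2:**
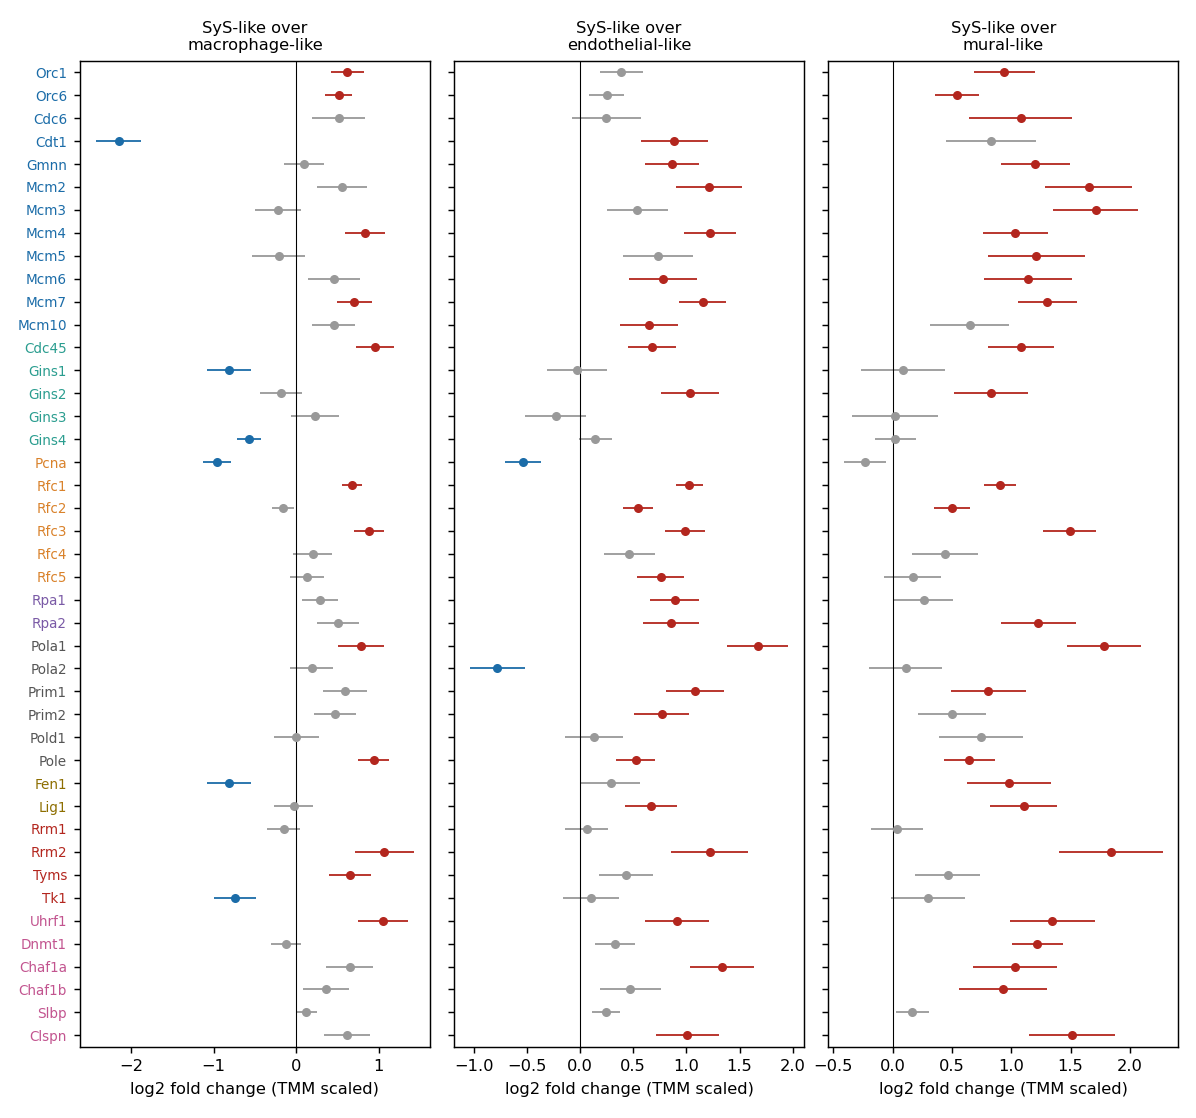
Log2 fold change of each of the 43 genes (points, bars ± SE) in SyS-like cells over macrophage-like, endothelial-like and mural-like cells, with TMM scaling and n = 5 tumours per class. Red marks genes called higher, blue called lower and grey not called at an adjusted p of 0.05, and label colours group genes by role. Most genes lie right of 0 against mural-like cells (27 red, 0 blue), and Cdt1 is lowest at -2.15 against macrophage-like cells.

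The licensing factor Cdt1 was the member furthest below macrophage-like cells. Its level was 10.6, 11.0, 12.7, 12.6 and 25.6 CPM in SyS-like cells and 46.8, 34.0, 41.5, 57.3 and 25.8 CPM in macrophage-like cells. The macrophage-like values were higher in 5 of 5 tumours without overlap, although in PD+MP they were nearly equal, and the log2 fold change was -2.15 ± 0.28 (adjusted p = 1.85e-06) and -1.57 with library totals. In endothelial-like cells Cdt1 stood at 6.55 ± 2.77 and in mural-like cells at 6.80 ± 2.49 CPM (SD, n = 5), with SyS-like fold changes of 0.89 ± 0.31 (adjusted p = 0.0202) and 0.83 ± 0.38 (adjusted p = 0.0825). The difference was also seen among cells with few cell cycle UMIs. Among cells with at most 1 UMI of each cell cycle list, defined below, macrophage-like cells held 45.4, 32.7, 44.5, 57.4 and 22.7 CPM of Cdt1 and SyS-like cells 4.96, 4.48, 5.86, 5.78 and 6.34. Gmnn, which encodes the inhibitor of Cdt1, had 42.3 ± 23.4 CPM in macrophage-like and 65.9 ± 37.9 in SyS-like cells (0.09 ± 0.25, adjusted p = 0.753). Whether reads of Gm20388, which overlaps Cdt1 on the same strand, take part in these counts was not tested.

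Pcna, the sliding clamp, was also lower in SyS-like than in macrophage-like cells. It measured 98.4, 103, 120, 124 and 204 CPM in SyS-like cells and 197, 114, 222, 139 and 173 CPM in macrophage-like cells, where it was higher in 4 of 5 tumours (-0.96 ± 0.17, adjusted p = 6.99e-05). Endothelial-like cells held 147, 113, 169, 183 and 145 CPM and mural-like cells 114, 86.6, 148, 144 and 153 CPM. In cells with few cell cycle UMIs, Pcna was 58.5 ± 11.2 CPM in SyS-like, 121 ± 23.0 in macrophage-like and 137 ± 31.0 in endothelial-like cells (SD, n = 5). In PD+MP the SyS-like class sum lay above the macrophage-like one, but its low cells did not (76.5 against 123 CPM).

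Cells were next divided by lists that contain none of the 43 genes. After each cell was thinned to 3000 UMIs, which kept 85.6% of SyS-like, 84.9% of macrophage-like, 66.0% of endothelial-like and 69.5% of mural-like cells as deep enough, cells with at least 5 UMIs of 39 mitotic genes were called G2M-high, those with at least 3 UMIs of 21 other S-phase genes and fewer mitotic UMIs S-high, and those with at most 1 UMI of each list low. Of the SyS-like cells, 25.6%, 24.3%, 21.6%, 23.2% and 28.7% were S-high, in the order of tumours above. The shares ranged from 7.5% to 10.9% in macrophage-like, 13.6% to 14.9% in endothelial-like and 3.96% to 14.0% in mural-like cells. SyS-like cells were higher in 5 of 5 tumours against each class, by 15.4 ± 3.41, 10.7 ± 2.84 and 16.4 ± 4.50 percentage points (SD), with an exact permutation p of 0.0625 each (two-sided, adjusted 0.0625), the smallest that 5 pairs allow. Neutrophil-like cells had been chosen as a background, and 12.5% of 40 were S-high (exact 95% interval 4.19% to 26.8%, median depth 6309 UMIs before thinning against 10532 in SyS-like cells). That class was 17.5% G2M-high, and leading genes of 1 of its clusters were Camp, Ngp and Elane of neutrophil precursors, so it does not give an S-phase background. Other classes ranged over all tumours from 5.99% of 484 dendritic-like cells to 17.6% of 85 mast-like and 27.8% of 115 T or NK-like cells. As a mean over tumours, T or NK-like cells (28.8%, range 21.9% to 37.5%) stood above SyS-like cells (24.7%), on 11 to 32 cells per tumour. A high S-high share was thus not particular to SyS-like cells. Among macrophage-like cells (9.15%) the summed level of the 43 genes was 675 ± 90.2 CPM in low and 1753 ± 624 in S-high cells (SD, n = 5), and among endothelial-like cells (14.0%) it was 598 ± 40.3 and 1083 ± 454 (n = 4). Without thinning the shares were 29.7% to 47.6% in SyS-like, 16.1% to 27.9% in macrophage-like, 24.5% to 31.3% in endothelial-like and 7.89% to 21.8% in mural-like cells, and PD+MP, highest among SyS-like cells after thinning, was lowest before it. The neutrophil-like cells also held SyS markers, at up to 3386 CPM. Intervals cover counting error only.

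Within SyS-like cells all 43 genes rose from low to S-high cells. Against 4.96% of all 17519 genes called higher and 6.04% lower, 43 of 43 were called higher, with log2 fold changes from 0.39 to 2.57 and a median of 1.20. The largest rise was that of the checkpoint gene Clspn, from 2.67, 3.74, 3.23, 2.41 and 4.51 CPM in low cells to 13.0, 18.8, 21.9, 17.0 and 32.4 CPM in S-high cells (2.57 ± 0.17, adjusted p = 6e-08). Rrm2 followed (2.13 ± 0.13, adjusted p = 2.61e-08), then Cdc45 (2.00 ± 0.12, adjusted p = 1.81e-08), which brings the helicase to life, and Chaf1b (2.00 ± 0.14, adjusted p = 1.15e-07). The smallest rises were those of Gins4 (0.39 ± 0.06, adjusted p = 0.000546), Rfc1 (0.40 ± 0.05, adjusted p = 6.45e-05) and Slbp (0.45 ± 0.06, adjusted p = 0.000157). Rfc1 already stood at 68.3 ± 9.19 CPM in low cells and Slbp at 86.1 ± 9.88 CPM (SD, n = 5). Within the helicase ring, Mcm3 (1.75), Mcm5 (1.72), Mcm6 (1.59) and Mcm2 (1.5) rose further than Mcm4 (1.08) and Mcm7 (0.97). Of the origin recognition genes, Orc1 (0.53) and Orc6 (0.46) rose less than any other licensing gene. Without the tumour block 25 of the 43 were called higher.

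From S-high to G2M-high cells all 43 genes rose again, against 17.6% of all genes called higher and 20.7% lower. Log2 fold changes ran from 0.31 to 2.69 with a median of 0.85. The order of the roles differed from that of the first step. Nucleotide supply led, with Rrm2 (2.69 ± 0.10, adjusted p = 2.24e-12), Tk1 (2.07 ± 0.11, adjusted p = 4e-10), Tyms (1.76 ± 0.07, adjusted p = 3.45e-12) and Rrm1 (1.58 ± 0.07, adjusted p = 2.21e-11), a median of 1.92 against 0.72 for licensing genes. Rrm2 rose from 12.7, 14.0, 29.4, 22.9 and 58.0 CPM in S-high to 110, 111, 139, 173 and 296 CPM in G2M-high cells, with no overlap. The smallest steps were those of Rfc1 (0.31 ± 0.05, adjusted p = 0.000108), Mcm4 (0.36 ± 0.08, adjusted p = 0.00294) and Gins4 (0.37 ± 0.06, adjusted p = 8.31e-05). In single tumours, Gins2 was the exception, at 50.9 CPM in S-high and 48.7 in G2M-high cells of PD+MP. These strata are not a pure order of phases. Of the G2M-high cells, 74.2% also held at least 3 UMIs of the S list, with a mean of 5.40 such UMIs against 4.34 in S-high cells, and 45.3% of S-high cells sat exactly at the limit of 3. The list sums were 801 ± 83.5 CPM in low, 1771 ± 494 in S-high and 3255 ± 500 in G2M-high cells (SD, n = 5), and the 48.0% of cells in the upper strata held 75.0% of the list's UMIs. Without the tumour block 16 of the 43 were called higher.

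**Figure D3:**
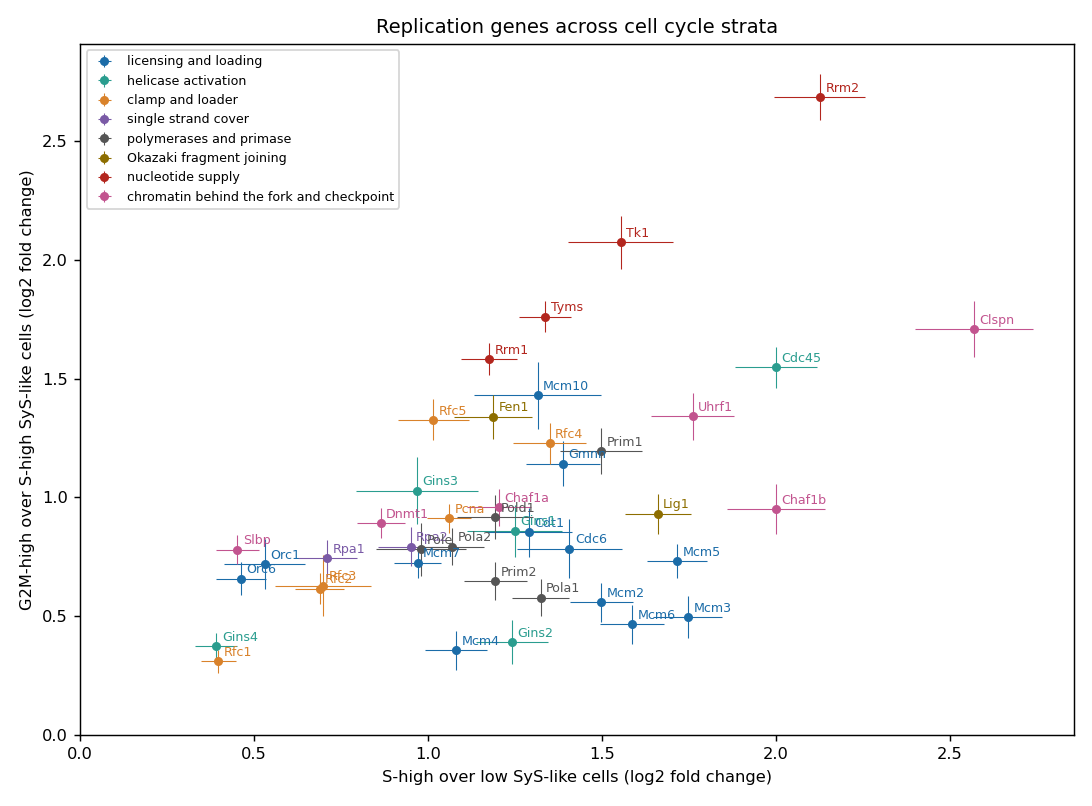
Log2 fold change of each of the 43 genes from low to S-high SyS-like cells (x) and from S-high to G2M-high cells (y), with bars of ± SE and n = 5 tumours per stratum. Points are coloured by role. All genes lie above 0 on both axes, the 4 nucleotide supply genes stand high on y (1.58 to 2.69), and Clspn lies farthest right at 2.57.

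S-high cells of different classes were compared to see whether the level in such cells differed. The summed level was 1771 ± 494 CPM in SyS-like cells (SD, n = 5) and 1753 ± 624 in macrophage-like cells (n = 5). By tumour, SyS-like cells stood at 1448, 1739, 1543, 1493 and 2631 CPM and macrophage-like cells at 2186, 1403, 2543, 970 and 1661. In endothelial-like cells the level was 1083 ± 454 (n = 4, the tumours with at least 20 such cells, all but PD+MP). Over those 4 tumours the SyS-like mean was 1556 ± 128 CPM. Of 41 genes that could be tested against macrophage-like cells, 1 was called higher and 6 lower, against 32.7% and 23.8% of 11710 genes. With library totals the split was 4 higher and 5 lower, against 44.2% and 18.7% of all genes. Cdt1 (-1.70 ± 0.35, adjusted p = 0.00045), Tk1 (-1.55 ± 0.36, adjusted p = 0.00139) and Gins1 (-1.50 ± 0.54, adjusted p = 0.026) were the lowest, followed by Fen1 (-1.31 ± 0.34, adjusted p = 0.00312), Mcm5 (-1.24 ± 0.33, adjusted p = 0.00448) and Pcna (-1.22 ± 0.20, adjusted p = 6.63e-05). Rfc1 was the gene called higher, with 94.9, 109, 84.6, 85.4 and 95.5 CPM in SyS-like S-high cells and 57.1, 69.3, 52.6, 22.6 and 55.4 CPM in macrophage-like ones (0.53 ± 0.20, adjusted p = 0.0329). The macrophage-like S-high sums come from 84, 60, 42, 29 and 68 cells, so low values in them rest on few UMIs. Rfc3 (0.64 ± 0.36, adjusted p = 0.138) and Pola1 (0.45 ± 0.37, adjusted p = 0.32) were not called. Rfc1 lost its call whichever tumour was left out, with fold changes of 0.40 to 0.57 and adjusted p of 0.0529 to 0.0972 in edgeR's test. Without PD+MP 10 genes were called lower. Orc1 and Gins3 had too few counts to be tested.

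Against endothelial-like S-high cells 8 genes were called higher and 1 lower, against 23.4% and 22.2% of all genes, and with library totals 14 were higher and 0 lower, against 30.7% and 18.9% of all genes. Pola1 (1.60 ± 0.44, adjusted p = 0.00606), Rfc3 (1.45 ± 0.40, adjusted p = 0.00635), Chaf1a (1.42 ± 0.53, adjusted p = 0.0356) and Mcm7 (1.38 ± 0.32, adjusted p = 0.00182) had the largest values. Gins2, Rfc1, Mcm6 and Rfc2 were also called higher, and Pcna was called lower (-0.68 ± 0.22, adjusted p = 0.0183). Mcm7 measured 59.6, 72.8, 56.3 and 47.8 CPM in SyS-like cells of the 4 tumours tested (all but PD+MP). In endothelial-like cells it measured 25.1, 7.98, 38.5 and 9.32 CPM, without overlap. These endothelial-like sums come from 57, 47, 63 and 49 cells, so the lowest values rest on few UMIs. Pola2 had a lower value that missed the threshold (-0.81 ± 0.36, adjusted p = 0.0755), and Gins1 stood at -0.62 ± 0.63 (adjusted p = 0.451). The count of genes called higher fell to 3 without BP replicate 2, 4 without MP+BP and 5 without BP replicate 1, and Pcna lost its call without BP replicate 1, MP or MP+BP.

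**Figure D4:**
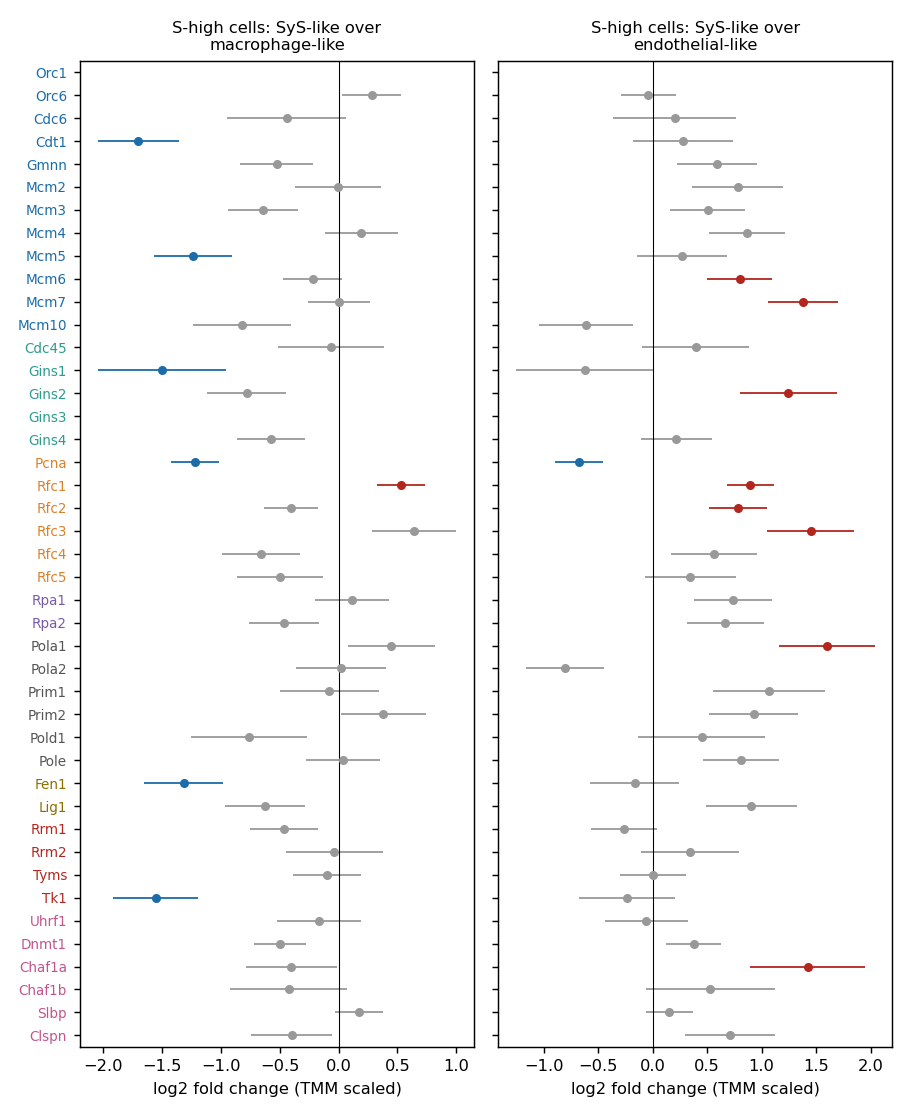
Log2 fold change (points, bars ± SE) of each testable gene in S-high SyS-like cells over S-high macrophage-like (n = 5 tumours) and endothelial-like cells (n = 4), with TMM scaling. Red marks genes called higher, blue called lower and grey not called. Most points against macrophage-like cells lie left of 0, with 1 red and 6 blue (14.6%, against 23.8% of all genes). Against endothelial-like cells 8 are red (19.5%, against 23.4% of all genes).

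Among tumours, PD+MP stood apart. Its SyS-like cells had the highest level of 34 of the 43 genes, where the same tumour was highest for 26.8% of 20153 genes. With 1 tumour of this label, no test between labels was possible. The list sum was 2760 CPM (exact Poisson 95% interval 2748 to 2773) against 1725 (1715 to 1734) in the next, BP replicate 2. The remaining order was MP, MP+BP and BP replicate 1, and BP replicates 1 and 2 lay further apart than MP and MP+BP. The ratio of PD+MP to the mean of the other 4 tumours had a median of 1.80 over the genes and ran from 0.925 for Rfc3 to 3.59 for Rrm2. Rrm2 measured 144 CPM in PD+MP and 25.6, 37.4, 52.2 and 45.6 in the others. Mcm2 measured 132 CPM against 36.9, 48.6, 35.4 and 41.8, and Uhrf1 98.5 CPM against 21.6, 27.9, 34.7 and 27.6. All 3 stood far above every other tumour, whereas Pole (16.8 CPM), Rfc1 (92.4) and Rfc2 (50.2) were inside the range of the others. PD+MP also had the fewest low cells (17.6% against 29.99% to 36.8%) and the most G2M-high cells (34.2% against 14.4% to 23.6%). Within strata the median ratio was 1.20 in low, 1.74 in S-high and 1.23 in G2M-high cells, with PD+MP highest for 22, 33 and 22 of the 43 genes against 28.4%, 28.4% and 27.5% of all genes. The S-high stratum was not equal between tumours. S-high cells of PD+MP held a mean of 4.80 UMIs of the S list, against 4.09 to 4.26 in the other tumours. Their mean of mitotic UMIs was 1.41 against 0.78 to 1.05. The S-high ratio therefore does not compare cells matched for these lists.

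**Figure D5:**
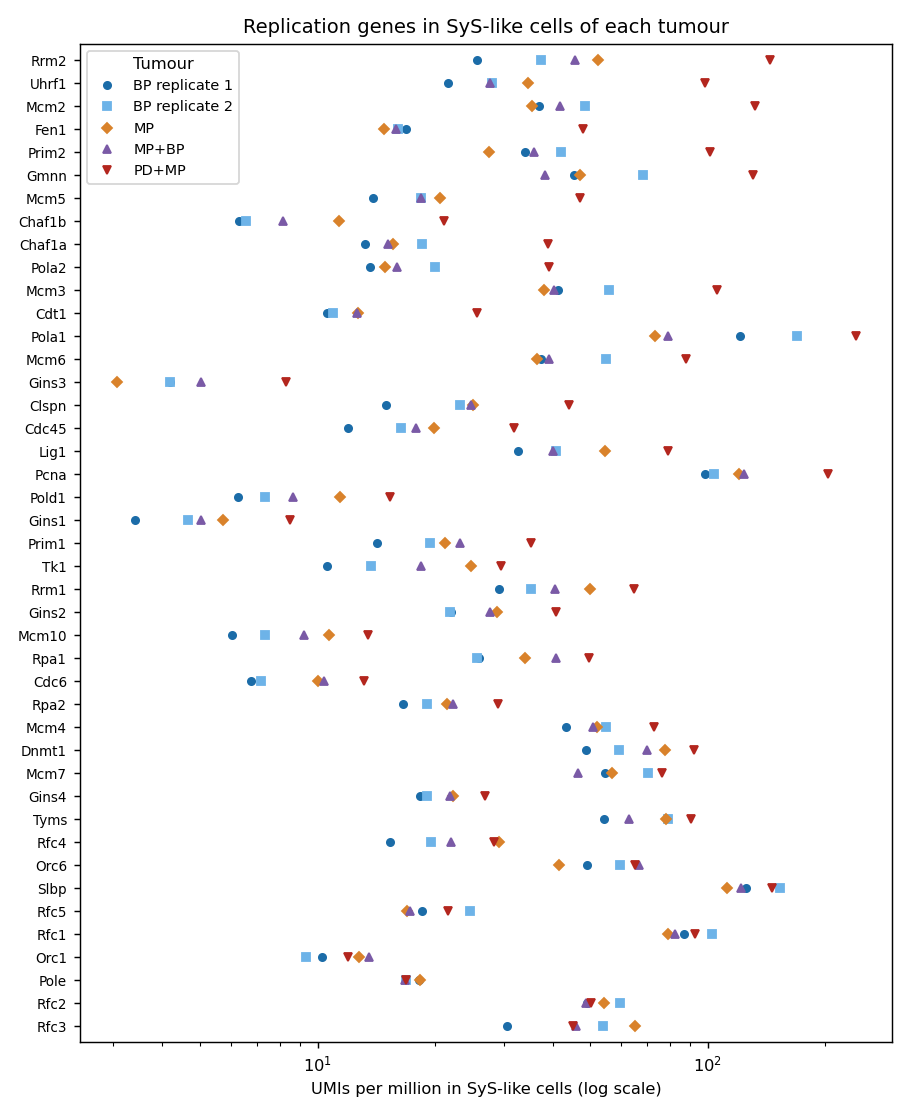
Level of each of the 43 genes in SyS-like cells of the 5 tumours, in CPM on a log axis, ordered by the ratio of PD+MP to the mean of the other 4. Each point is 1 tumour. PD+MP (red) is highest for 34 genes, with Rrm2 at the top at a ratio of 3.59 and Rfc3 at the bottom at 0.925.

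The labels were compared by setting the 3 tumours with BP in the label against the 2 without. No gene was called by edgeR's quasi-likelihood test, 0 of 43 members and 0 of 20723 genes (0% of all genes in either direction). At an unadjusted p under 0.05 there were 13 members and 1867 genes, and DESeq2 called 0 members and 458 genes. The values of 41 members were below 0, with a median log2 fold change of -0.66 against 0.01 for all genes. The lowest were Rrm2 (-1.53 ± 0.48), Uhrf1 (-1.46 ± 0.45) and Chaf1b (-1.30 ± 0.35), each with an adjusted p of 0.549. The highest were Orc6 (0.05 ± 0.28, adjusted p = 0.961), Rfc1 (0.01 ± 0.22, adjusted p = 0.994) and Rfc5 (-0.01 ± 0.28, adjusted p = 0.992). Without PD+MP the median was -0.21, and without MP it was -1.04 with 5 members called lower. Each leaves 1 tumour without BP, which is assumed to vary like the 3 with it.

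In macrophage-like and endothelial-like cells a different tumour was highest for most members. Macrophage-like cells of MP had the highest level of 39 of the 43 genes, where MP was highest for 19.0% of 11707 genes. Mcm6 measured 51.5 CPM there against 28.4, 15.2, 10.8 and 20.6, and Clspn 27.8 against 10.8, 6.55, 5.63 and 11.4. In endothelial-like cells MP was highest for 23 of 43 genes, against 13.1% of all, and PD+MP for 14. MP also had the largest G2M-high share among macrophage-like cells (18.0%). The PD+MP tumour was highest for 2 genes in macrophage-like cells, but in mural-like cells, where 31 members could be ranked, it was highest for 20, against 28.1% of all genes.

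Other genes of the pathway, from lists chosen by function, followed in part. From low to S-high SyS-like cells 22 of 29 other replication genes rose and 1 fell. Of all genes, 4.96% were called higher and 6.04% lower in this comparison. Chtf18, part of an alternative clamp loader (1.85 ± 0.20, adjusted p = 1.34e-05), and Mcm8 (1.56 ± 0.14, adjusted p = 1.34e-06) rose most, and the small polymerase delta subunit gene Pold4 fell by 0.40 (± 0.06, adjusted p = 0.000833). Of 20 genes of nucleotide synthesis 11 rose and 0 fell, among them Dut (0.78 ± 0.08, adjusted p = 5.96e-06), and of 16 E2F and Rb regulators 10 rose and 0 fell, among them E2f1 (1.26 ± 0.07, adjusted p = 1.62e-08) and the cyclin gene Ccna2 (2.18 ± 0.20, adjusted p = 1.87e-06). From S-high to G2M-high cells 23 of 29 other replication genes rose and 3 fell, against 17.6% and 20.7% of all genes. Dbf4, the activator of the Cdc7 kinase, was highest (2.17 ± 0.11, adjusted p = 1.09e-10). Pold4 fell by 0.63 (± 0.07, adjusted p = 2.22e-06). Ccna2 rose further (4.29 ± 0.11, adjusted p = 5.53e-14).

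Between classes these lists were mixed. Against macrophage-like cells 7 of 31 other replication genes were called higher in SyS-like cells and 7 lower, both shares below the 38.8% and 30.8% of all genes, with Cdc7 (1.69 ± 0.20, adjusted p = 7.02e-07) highest and Pold4 (-1.64 ± 0.17, adjusted p = 1.59e-07) lowest. Of the 20 nucleotide synthesis genes 10 were higher and 3 lower, and Samhd1, which breaks down nucleotides, was lowest (-1.74 ± 0.22, adjusted p = 1.72e-06). Of 18 E2F and Rb regulators 8 were higher and 3 lower, with Rb1 lowest (-1.38 ± 0.17, adjusted p = 7.82e-07). Against endothelial-like cells (31.4% of all genes higher, 28.6% lower) the counts were 12 higher and 3 lower, 12 and 2, and 7 and 4, and against mural-like cells (27.2% and 20.7%) 10 and 3, 11 and 1, and 4 and 1, in the same order of lists. Cad, which starts pyrimidine synthesis, was higher by 1.93 ± 0.31 (adjusted p = 3.48e-05) and 1.69 ± 0.36 (adjusted p = 0.000924) in these comparisons. None of the genes in these lists was called for the BP label by edgeR.

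Across the 20 sums of tumour and class, the mean level of the 43 genes was closely followed outside the lists by genes such as Kif15 (Spearman rho 0.96), Stmn1 (0.94), Atp5g2 (0.93), Bard1 (0.91), Dpy30 (0.90), H2afx (0.90), Hint1 (0.89), Denr (0.89) and Prpf19 (0.89). Among the members, Lig1 (0.98), Mcm7 (0.95) and Rrm2 (0.94) lay closest to the mean that they help to make, and Pola2 (0.27), Gins3 (0.34), Pcna (0.37) and Cdt1 (0.45) farthest. Of 17633 genes ranked, 19 of the first 100 were members. The 20 points share tumours and depth, and these are descriptions without a test.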

How the data were processed

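Single-cell libraries (10x Genomics 3′ chemistry) of 5 tumours were aligned to mm10 and counted with Cell Ranger by the authors, who deposited filtered matrices of raw counts of UMIs per gene and cell with no normalization. The counts were read with Python 3.11.15. Cells with at least 750 genes and at most 25% mitochondrial UMIs were kept, and the cells with the highest Scrublet scores, up to the share expected from the cell number (0.8% per 1000 cells), were removed as doublets. Cells were clustered with scanpy 1.11.5 and Leiden (3000 genes, 30 components, 20 neighbours, resolution 1), leaving out the 43 genes and the cell cycle lists, and clusters were named from marker lists. The naming rule was changed after the data were seen: a marker counted where its level was at least 3 times the 25th percentile of clusters and at least 25% of the highest cluster, and clusters whose leading genes went against their markers stayed unnamed. Class names are therefore rebuilt here and are not those of the authors.

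Counts were summed per tumour and class, or per tumour and stratum (at least 20 cells), and tested with edgeR 4.0.16 (quasi-likelihood, TMM, filter on low counts, tumour as a block except for the BP label, Benjamini-Hochberg threshold 0.05). DESeq2 1.42.0 was an alternative. Shares were compared with an exact permutation test over tumours. The edgeR fitting step was tested on simulated counts. CPM were computed here from library totals. Because 3′ counts are not per length, levels were not compared between genes. The members and gene lists were chosen with earlier results of these data known. By the rule for named genes, all 43 are named, with full values for the 3 highest and 3 lowest fold changes of each comparison. Members whose calls differed between comparisons are given by name and range, with full values for a few, and companion lists by at most 2 genes at each end. Alternatives were library totals, no filter, no block, each tumour left out, doublets kept, at least 1500 genes, other thinning and S-high limits, and, added after seeing the data, all clusters with SyS markers. Windows for Gins1, Gins2, Gins4, Gmnn, Mcm4, Pole, Prim2 and Rfc2 were not used here. Some genes that the rule for named genes would list are not reported here.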

Additional observations from a re-analysis of the deposited data

Results flagged for a closer look

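For every group of 5 tumours, the distance of the highest or lowest tumour from its neighbour was compared with the group's range by Dixon's criterion. Of 188 groups, 23 passed, 12 of them for PD+MP in SyS-like cells. For independent groups, chance would give about 1 in 20. These groups share the same 5 tumours and genes that move together, so 23 cannot be set against that rate. In SyS-like cells, PD+MP lay far above the other 4 tumours for Cdt1 (25.6 CPM), Mcm2 (132), Mcm3 (106), Mcm5 (46.9), Pcna (204), Pola2 (39.1), Prim2 (101), Fen1 (47.9), Rrm2 (144), Uhrf1 (98.5), Chaf1a (38.9) and all 43 genes together (2760 CPM). In macrophage-like cells MP lay apart for Pola1 (80.3 CPM) and Clspn (27.8 CPM). In endothelial-like cells MP lay apart for Cdc45 (14.1 CPM), Gins2 (18.7) and Pola1 (46.5), and PD+MP, with 80 cells, for Rfc4 (29.3). In mural-like cells Cdt1 was low in BP replicate 1 (2.41 CPM), Gins4 was high in MP+BP (23.8), and Rfc2 (47.0) and Tk1 (39.2) were high in PD+MP, which held 38 cells. The S-high share of endothelial-like cells stood apart in MP+BP (14.9%), although the whole range there was 13.6% to 14.9%. No explanation of these values was tested.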

How the results depend on the processing

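With library totals in place of TMM scaling, 33 members were higher and 2 lower against macrophage-like cells and 0 lower against endothelial-like cells, and within S-high cells 4 were higher against macrophage-like, and 14 higher and 0 lower against endothelial-like cells. The fold change against macrophage-like cells then turned positive for Dnmt1 (0.46), Gins4 (0.0095), Lig1 (0.54), Pold1 (0.58) and Rfc2 (0.42). Without the tumour block, 25 members rose from low to S-high and 16 from S-high to G2M-high cells, 1 was lower against endothelial-like cells (also 1 when only the 2 classes were fitted), Pold1 against macrophage-like cells stood at 0.037, and within S-high 0 were higher against macrophage-like and 0 lower against endothelial-like cells. Without the filter on low counts, within S-high 3 were higher against macrophage-like, and 15 higher and 0 lower against endothelial-like cells. Thinning to 2000 UMIs gave within S-high 0 higher and 10 lower against macrophage-like and 3 higher against endothelial-like cells, Gins2 from S-high to G2M-high at -0.039, and share differences of 10.0, 5.11 and 11.1 points against macrophage-like, endothelial-like and mural-like cells. An S-high limit of 4 UMIs gave 1 higher and 0 lower against endothelial-like S-high cells, with share differences of 9.77, 6.59 and 8.87 points. The mural-like difference without thinning was 24.7 points, and keeping doublets left 5 higher against endothelial-like S-high cells. Leaving out 1 tumour at a time gave 6 to 18 higher and 3 to 7 lower against macrophage-like, 1 to 2 lower against endothelial-like, 0 to 1 lower against mural-like and 0 to 5 lower for the BP label (5 without MP, which leaves 1 tumour in that arm, assumed to vary like the rest). Within S-high it gave 0 to 1 higher and 4 to 10 lower against macrophage-like, and 3 to 12 higher and 0 to 1 lower against endothelial-like cells. Lig1 against macrophage-like cells then ran from -0.39 to 0.20 (above 0 without BP replicate 1 or MP), and Pold1 from -0.34 to 0.17 (above 0 without BP replicate 1, BP replicate 2 or MP). The causes were not tested. All clusters with SyS markers, an alternative chosen after seeing the data, left every count of calls within 1.5 times. Classes of 1 tumour share its block. No paired analysis between labels was possible because each tumour carries 1 label and nothing links tumours of different labels. The sums of PD+MP rest on few mural-like (38) and endothelial-like (80) cells.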
